A study of Mus musculus and Rattus norvegicus with 53 samples.

Results

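The laminin chains and integrin subunits were followed in sorted mouse Schwann cells (SCs) of the intact and the transected sciatic nerve. The members were all listed genes whose symbol is that of a laminin α, β or γ chain (Lama, Lamb or Lamc with a number) or of an integrin α or β subunit (Itga or Itgb with its number or letter). Of the 24016 mouse genes in the count tables, 37 were members, and these comprised 11 laminin chains, 18 integrin α subunits and 8 integrin β subunits. Genes were taken into the set by name, and the set itself was chosen with earlier results of these data known. After a filter on low counts, 32 members were tested in the pooled libraries and 34 in the single-nerve libraries. Itgad, Itgb6 and Lama1 were tested in neither set, and Itgal and Lamc3 were not tested in the pooled libraries.

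SCs were sorted by their red fluorescence from P0A-Cre mice carrying a Rosa26 tdTomato reporter, males and females aged 6 to 8 weeks. Labelling depended on Cre recombination in the SC lineage, and all groups carried both transgenes. One sciatic nerve was fully transected. SCs of the contralateral intact nerve (iSCs), of the stump distal to the cut (dSCs) and of the tissue bridge that forms across the gap (bSCs) were then compared by RNA-seq. In the pooled experiment each library held the nerves of 3 mice taken at day 6, with 4 libraries per region. In the single-nerve experiment each library came from 1 nerve, and 5 libraries held iSCs. The distal stump was sampled on day 1 and then on every second day from day 2 to day 10, and the bridge on every second day from day 4 to day 10, with 3 libraries per region and day. Bridges of a pool were digested together whereas intact and distal nerves were digested apart and then pooled, so that handling and region cannot be told apart for the bridge.

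Depth was between 11435463 and 22617054 counts on genes in the pooled libraries and between 9240883 and 22426128 in the single-nerve libraries. Levels are given below as CPM, the counts on a gene scaled to an effective library size of 1000000 counts, and levels of different genes are compared only as CPM per kilobase of exon (CPM per kb). The sort was checked against marker genes. All 6 Schwann cell markers looked for were detected in every group, and their summed level was between 4899 and 11541 CPM in pooled iSCs, between 1341 and 3230 in dSCs and between 1227 and 2544 in bSCs. Of 10 macrophage markers, 9 were listed and none was at 0 throughout a group. Their summed level was between 180 and 4775 CPM in pooled iSCs, between 7847 and 12772 in dSCs and between 1847 and 5783 in bSCs. In these bulk libraries, fewer cells of a type and less RNA per cell cannot be told apart. Pooled iSC library 5 had the highest macrophage sum of the iSCs, and 3 single-nerve libraries (iSC libraries 0 and 1, and dSC day 2 library 0) had scaling factors of 0.619, 0.604 and 0.496, under the limit of 0.7 used to mark them.

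Laminins are trimers of an α, a β and a γ chain that SCs secrete into the basal lamina wrapped around each SC and axon unit. Integrins are αβ pairs in the cell membrane that bind laminins, fibronectin, tenascin or collagens outside and link to actin or intermediate filaments inside. In peripheral nerve the laminin trimers built on the α2 and α4 chains, and the receptors α6β1, α7β1, α6β4 and dystroglycan, are known for their part in axon sorting and myelination.

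Promoters of 4 members are shown, Lama2, Lamb2 and Itga5 because they differed between pooled bridge and distal stump, as described below. Itgb5, which was also called there, is not shown. Lama2 and Lamb2 were lower in the pooled bSCs, Itga5 was higher, and Lamb1, the other main β chain, is shown for comparison. Each runs from 250 bases before to 50 bases after the RefSeq transcription start, 5′ to 3′ on the gene's strand, and was taken from the RefSeq table of build GRCm38.p6 and found once on its chromosome of mouse build NCBIM37 (mm9). Capitals mark GGGCGG or its reverse complement, the GC box bound by Sp1-like factors. Lama2 lies at chr10:27336699-27336998 (minus strand), Lamb2 at chr9:108381943-108382242 (plus), Lamb1 at chr12:31949908-31950207 (plus) and Itga5 at chr15:103197173-103197472 (minus).
Lama2: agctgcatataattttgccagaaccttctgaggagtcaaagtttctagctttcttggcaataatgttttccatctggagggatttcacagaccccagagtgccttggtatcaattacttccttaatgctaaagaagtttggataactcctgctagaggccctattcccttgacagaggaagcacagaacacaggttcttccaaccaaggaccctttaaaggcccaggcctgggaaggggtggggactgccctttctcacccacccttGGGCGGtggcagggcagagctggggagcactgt
Lamb2: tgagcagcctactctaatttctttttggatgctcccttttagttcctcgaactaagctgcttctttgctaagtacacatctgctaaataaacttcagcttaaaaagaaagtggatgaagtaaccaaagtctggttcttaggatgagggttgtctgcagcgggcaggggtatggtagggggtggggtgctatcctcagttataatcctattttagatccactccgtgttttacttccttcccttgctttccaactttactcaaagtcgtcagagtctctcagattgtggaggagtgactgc
Lamb1: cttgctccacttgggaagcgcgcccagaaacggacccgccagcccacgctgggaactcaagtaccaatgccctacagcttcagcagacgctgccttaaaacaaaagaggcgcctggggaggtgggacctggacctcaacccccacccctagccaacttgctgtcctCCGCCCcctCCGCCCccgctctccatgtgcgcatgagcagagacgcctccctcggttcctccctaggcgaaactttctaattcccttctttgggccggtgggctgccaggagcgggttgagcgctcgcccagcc
Itga5: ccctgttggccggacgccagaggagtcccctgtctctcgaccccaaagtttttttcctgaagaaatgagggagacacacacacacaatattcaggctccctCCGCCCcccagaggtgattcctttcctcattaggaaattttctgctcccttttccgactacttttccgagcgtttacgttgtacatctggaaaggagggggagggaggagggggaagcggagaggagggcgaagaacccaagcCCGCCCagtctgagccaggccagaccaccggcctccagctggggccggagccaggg

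The GC box was found once in Lama2, 18 bases past the start, and at 2 places each in Lamb1 and Itga5. None was found in the Lamb2 window. Over 32544 promoters of the same length, 35.9% held a GC box on either strand, and 11 of the 23 members with a promoter in the table did. Neither TGANTCA, the AP-1 motif, nor GGAATG, the TEAD motif, was found on either strand of the 4 windows. Those motifs were held by 7.79% and 14.6% of all promoters, and by 2 members each. The G and C content was 63.7% in Lamb1, 58.7% in Itga5, 50.3% in Lama2 and 44.0% in Lamb2.

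To ask how the chains of the basal lamina differ between regions, the laminin genes were compared first. The α2 chain gene Lama2 and the β2 chain gene Lamb2 fell in pooled bSCs against both iSCs and dSCs, whereas neither passed the test between dSCs and iSCs. No other laminin chain passed this test, edgeR's quasi-likelihood test, in the pooled libraries, where Lamc3 was not tested. DESeq2 also called Lamb3 in bSCs against iSCs and dSCs, and Lamc3 in dSCs and bSCs against iSCs, and edgeR with no filter on low counts called Lamc3 in bSCs against iSCs. In bSCs Lama2 and Lamb2 were 4.99 and 5.66 times lower than in iSCs by their mean CPM, and 3.63 and 5.12 times lower than in dSCs.

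Lama2 (chr10:26701094-27336748, minus strand, mm9), the α chain of the main SC laminin, gave 245, 242, 254 and 554 CPM in the iSC libraries. The dSC libraries gave 327, 203, 171 and 242 CPM, and the bSC libraries 96.4, 47.9, 42.3 and 72.7 CPM. All bSC values thus lay below all iSC and dSC values, which overlapped. The fitted log2 fold change (log2FC, with its standard error, SE) was -2.32 (SE 0.37) for bSCs against iSCs, with an adjusted p of 0.0012 in edgeR's quasi-likelihood test with Benjamini-Hochberg adjustment over all genes, which is the test behind every adjusted p below unless another is named. Against dSCs it was -1.86 (SE 0.36, adjusted p = 0.0124). Without iSC library 5, which gave the value of 554 CPM, the change against iSCs was -1.89 (adjusted p = 0.0022).

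Lamb2 (chr9:108382193-108392861, plus strand), the β chain of laminins 221 and 421, showed the larger difference. Its iSC libraries gave 251, 164, 330 and 422 CPM, its dSC libraries 304, 320, 205 and 227 CPM, and its bSC libraries 76.7, 46, 51.7 and 31.6 CPM. The bSC libraries again lay apart from both other groups. The log2FC was -2.50 (SE 0.34, adjusted p = 0.000554) against iSCs and -2.36 (SE 0.34, adjusted p = 0.00405) against dSCs. Both genes stayed past the threshold in each of the 14 alternative fits of each comparison, the fit with the pool number as replicate block included.

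Of 4 fibroblast markers, Dcn and Lum, proteoglycans of connective tissue, fell in bSCs against dSCs (log2FC -2.88 and -3.25). Col1a1, a chain of collagen I, had a log2FC of 0.59 (adjusted p = 0.579), with medians of 10047 CPM in bSCs, 6480 in dSCs and 3025 in iSCs, and the summed level of all 4 was between 8173 and 17853 CPM in bSCs, between 21770 and 31304 in dSCs and between 6911 and 34341 in iSCs. No marker of the list was at 0 throughout a group. Of 5 pericyte and smooth muscle markers, Myh11, smooth muscle myosin, fell in bSCs against dSCs (log2FC -8.37), while the sum of all 5 was between 292 and 1037 CPM in bSCs, between 194 and 252 in dSCs and between 296 and 1621 in iSCs. The part of both lists in the lower Lama2 and Lamb2 was not tested.

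The partner chains did not pass the test. Lamb1 (chr12:31950099-32014509), the β1 chain, gave 428, 347, 179 and 440 CPM in bSCs, 437, 239, 254 and 301 CPM in dSCs and 497, 534, 365 and 382 CPM in iSCs, and the groups overlapped. Its log2FC between bSCs and dSCs was 0.18 (SE 0.30, adjusted p = 0.8). For Lama4, the α4 chain, the bSC libraries gave 272, 151, 132 and 240 CPM, the dSC libraries 296, 174, 119 and 224, and the iSC libraries 245, 263, 197 and 196. Its log2FC was -0.03 (SE 0.31) between bSCs and dSCs. Lamc1, the γ1 chain shared by most SC laminins, gave 150, 213, 122 and 299 CPM in bSCs, 297, 358, 196 and 295 in dSCs and 263, 235, 373 and 579 in iSCs. Its log2FC of -0.89 (SE 0.35) against iSCs missed the threshold (adjusted p = 0.104). Lama5, the α5 chain, was low throughout, with 15.9, 31.1, 33 and 17.8 CPM in bSCs, 20.9, 8.4, 30.4 and 22 in dSCs and 36.5, 43.9, 25.8 and 28.6 in iSCs.

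**Figure D1:**
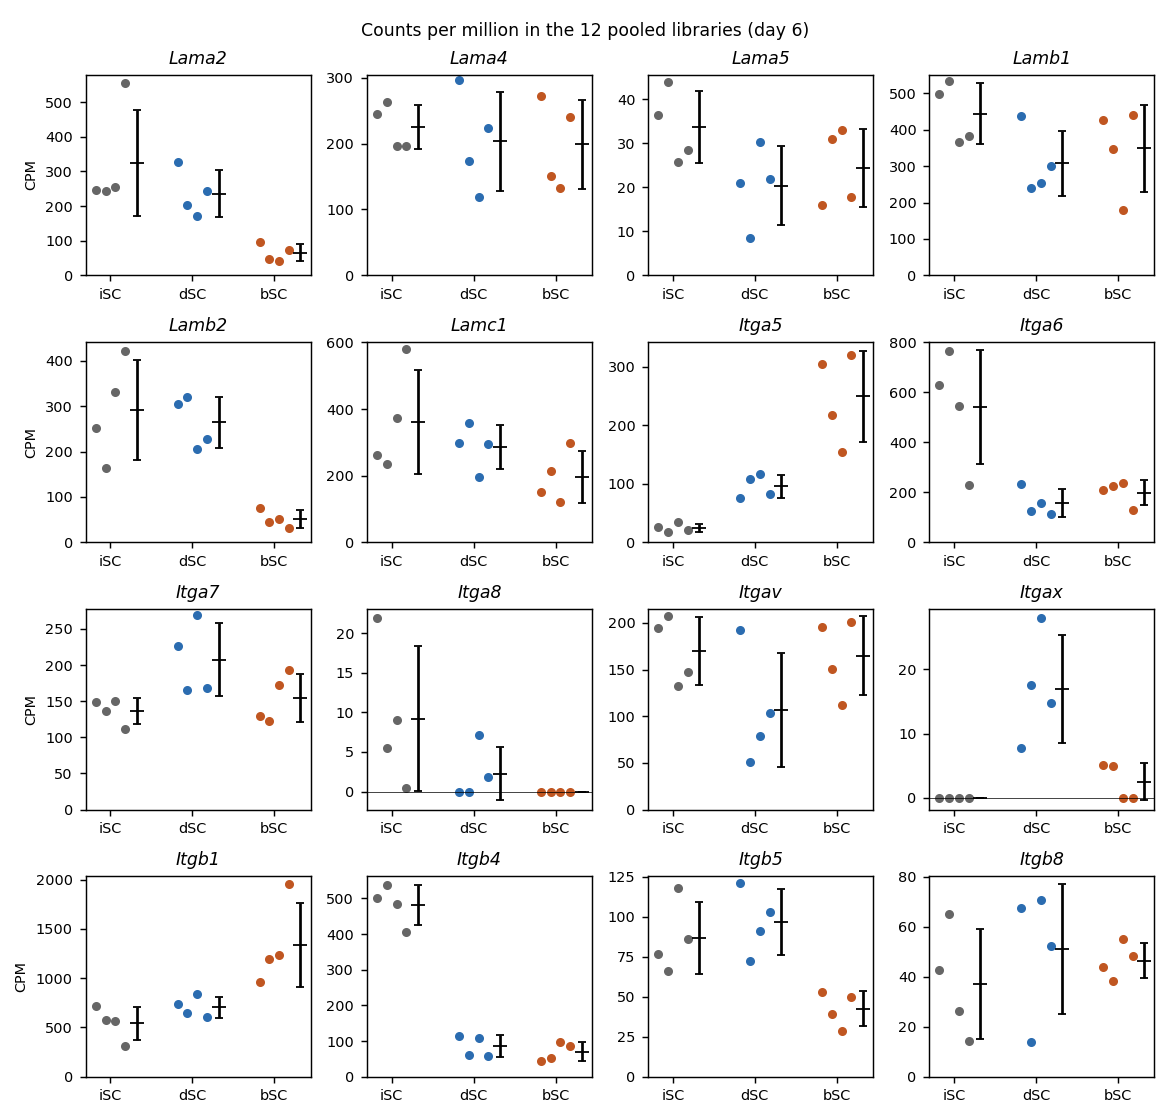
CPM (y axis, linear) of 16 members in the 12 pooled libraries at day 6, grouped by region on the x axis. Each point is a library and the bar beside it gives the mean and SD of the 4. Lama2 and Lamb2 in bSCs, between 42.3 and 96.4 and between 31.6 and 76.7 CPM, lie below every other library, Itga5 has 3 groups that do not overlap, and Itgb4 lies between 405 and 538 CPM in iSCs, above every injured library.

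The make-up of the laminin set changed with these genes, described here with no test. Per kilobase, Lama2, Lama4 and Lama5 made up 99.1% ± 0.46 (SD, n = 4) of the summed α chain level in iSCs, and 99.9% and 99.1% in dSCs and bSCs. Lama2 alone made up 58.1% ± 11.5 of it in iSCs, 56.7% ± 1.71 in dSCs and 25.6% ± 2.35 in bSCs. Lama4 made up 35.4% ± 9.88, 38.6% ± 4.04 and 63.8% ± 4.18. The ratio of Lamb2 to Lamb1 per kilobase was 1.24 ± 0.64 in iSCs, 1.58 ± 0.53 in dSCs and 0.297 ± 0.16 in bSCs. Every bSC library, the highest at 0.51, had a lower ratio than every iSC and dSC library, the lowest at 0.541.

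In the single-nerve libraries, which were normalized apart from the pooled ones, the same measures were taken again. Lamb2 over days 4 to 10 was between 24.1 and 241 CPM in the 12 bSC libraries (median 121) and between 114 and 348 CPM in the 12 dSC libraries (median 206). The ranges overlapped, and the fitted log2FC of -0.84 (SE 0.37) had an adjusted p of 0.449. Lama2 was between 39.4 and 296 CPM in bSCs (median 137) and between 65.4 and 327 CPM in dSCs (median 151), with a log2FC of -0.24 (SE 0.29). Against single-nerve iSCs (median 135 CPM) the log2FC of Lama2 in bSCs was -0.06 (adjusted p = 0.983), so its pooled fall was not seen here. For Lamb2 (iSC median 271 CPM) it was -1.26 and missed the threshold (adjusted p = 0.0717), though it passed in 4 of 23 alternatives. Without the 3 libraries of low scaling factor, a setting chosen after seeing the data, it was -1.91 (adjusted p = 0.00504). The iSC libraries of low scaling factor gave 64.7 and 50.9 CPM of Lamb2, the lowest of the iSCs. The median ratio of Lamb2 to Lamb1 per kilobase was 0.516 in bSCs and 1.59 in dSCs, with ranges of 0.127 to 1.88 and 0.708 to 1.95. In single-nerve iSCs it was 5.38, with a range of 2.54 to 10, against at most 1.95 in pooled iSCs. At day 6 in the single nerves, Dcn was between 2408 and 2759 CPM in bSCs and between 7420 and 8159 CPM in dSCs, and Lum between 822 and 1621 CPM and between 2475 and 3867 CPM, the same order as in the pooled libraries. Col1a1 was between 17332 and 21970 CPM in bSCs and between 3848 and 8283 CPM in dSCs.

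Of the single-nerve animals, 10 had both a bSC and a dSC library that their labels tie together, 3 at each of days 4, 6 and 8 and 1 at day 10. A further day 10 pair was left out because the title of its bSC library gives another replicate number than its other labels. After the fit across all genes had called no member between these regions, the 4 members called in the pooled bSC against dSC comparison and the 2 laminin ratios were tested over these pairs by a two-sided exact sign-flip permutation test. Its p can go no lower than 0.00195, and adjusted values cover these 6 measures only. Lamb2 was lower in the bSC library of 8 of 10 pairs, by a mean log2 difference of -0.83 ± 0.96 (SD, exact p = 0.0137, adjusted p = 0.0273). The Lamb2 to Lamb1 difference was lower in 8 of 10 pairs, by -1.36 ± 1.19 (exact p = 0.00977, adjusted p = 0.0273). Lama2 was lower in 8 of 10 pairs, by -0.61 ± 0.97, and did not pass (exact p = 0.0781, adjusted p = 0.0781). The Lama2 to Lama4 difference was lower in 7 of 10 pairs, by -0.76 ± 1.02 (exact p = 0.0391, adjusted p = 0.0586). In the planned edgeR fit with the animal as replicate block, no gene at all was called between bSCs and dSCs.

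**Figure D2:**
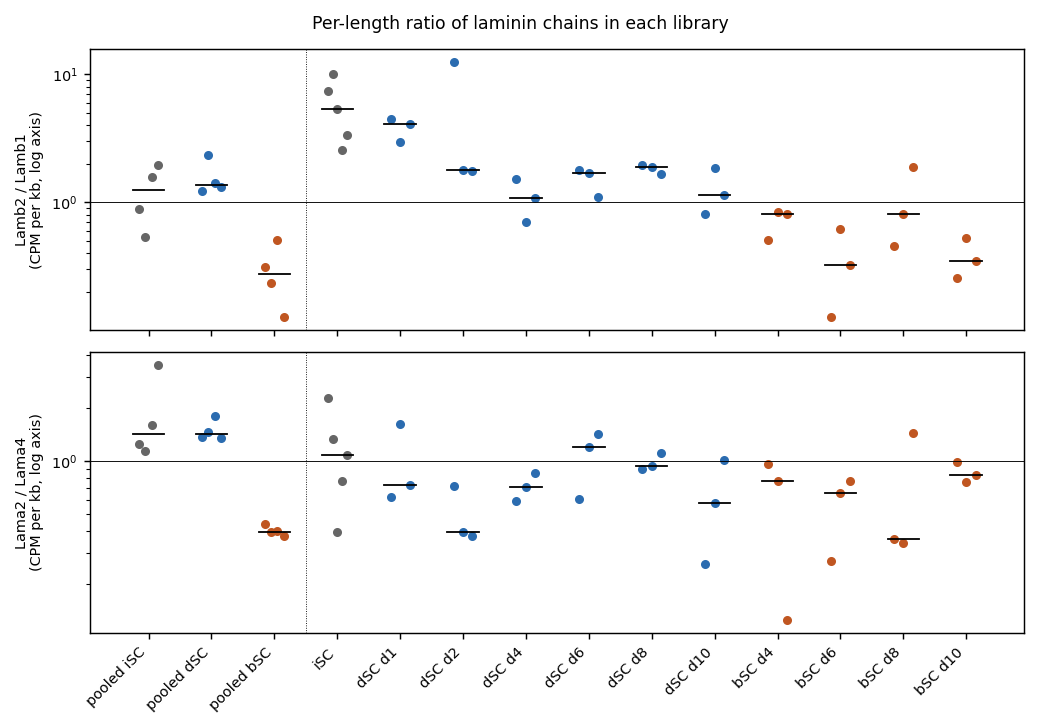
Ratio of Lamb2 to Lamb1 (top) and of Lama2 to Lama4 (bottom), each as CPM per kb on a log axis, with 1 point per library and a bar at the group median. Pooled libraries stand left of the dotted line and single-nerve groups by region and day right of it. The pooled bSC libraries lie between 0.127 and 0.51 for Lamb2 to Lamb1 and between 0.376 and 0.439 for Lama2 to Lama4.

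To place the receptors beside their ligands, the laminin-binding integrins came next. Itgb4 and Itga6, which encode the subunits of α6β4, fell in both injured regions of the pooled experiment. Itga7 did not pass the test in any pooled comparison. Itgb4 was 5.59 times lower in dSCs and 6.87 times lower in bSCs than in iSCs by mean CPM.

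Itgb4 (chr11:115836023-115869726, plus strand), whose long cytoplasmic tail binds intermediate filament linkers, gave 500, 538, 484 and 405 CPM in iSCs. The dSC libraries gave 115, 61.7, 109 and 58.9 CPM and the bSC libraries 44.6, 51.3, 97.3 and 87.4 CPM. No injured library reached the lowest intact library. The log2FC was -2.48 (SE 0.32, adjusted p = 0.000984) in dSCs and -2.78 (SE 0.33, adjusted p = 0.000257) in bSCs, and it passed in each of the 14 alternatives of each comparison. Exons of another annotated gene overlapped 7.66% of its exon bases. Of the Schwann cell markers, Sox10, a transcription factor of the lineage, fell and Ngfr, a neurotrophin receptor, rose in both dSCs and bSCs, with the sums given above. Of 3 perineurial markers, Slc2a1, a glucose transporter, fell in bSCs (log2FC -1.97), and the sum of all 3 was between 315 and 569 CPM in iSCs, between 135 and 598 in dSCs and between 102 and 379 in bSCs, with none at 0 throughout a group. The part of both lists in the lower Itgb4 and Itga6 was not tested.

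For Itga6 (chr2:71583673-71696473, plus strand), the α6 subunit that pairs with β1 or β4, the iSC libraries gave 628, 767, 544 and 230 CPM. The dSC libraries gave 235, 127, 158 and 112 CPM and the bSC libraries 210, 225, 236 and 128 CPM. The lowest iSC library, library 5, lay within the range of both injured groups. The log2FC was -1.78 (SE 0.37, adjusted p = 0.0141) in dSCs and -1.44 (SE 0.36, adjusted p = 0.0173) in bSCs. The call in dSCs was lost on leaving out iSC library 1 or 2 or dSC library 2 or 5 (adjusted p between 0.0503 and 0.0547), and that in bSCs on leaving out iSC library 1 or 2 (0.0556 and 0.0622). Itga7, the α7 subunit of a laminin receptor with β1, gave 149, 136, 151 and 112 CPM in iSCs, 227, 166, 270 and 168 in dSCs and 130, 123, 172 and 193 in bSCs. All dSC values lay above all iSC values, but the log2FC of 0.60 (SE 0.24) had an adjusted p of 0.202.

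Single-nerve iSC libraries 0, 1, 3, 4 and 5 gave 95.4, 166, 416, 438 and 177 CPM of Itgb4, a wider spread than the pooled ones. The 12 bSC libraries of days 4 to 10 lay between 21 and 181 CPM (median 60.8) and the 12 dSC libraries between 60.4 and 201 CPM (median 102). The log2FC against iSCs was -1.94 (SE 0.45, adjusted p = 0.00789) in bSCs and -1.24 (SE 0.46, adjusted p = 0.108) in dSCs, and without the 3 libraries of low scaling factor the latter was -1.65 (adjusted p = 0.0447). Between bSCs and dSCs it was -0.70 (SE 0.37, adjusted p = 0.623). Itga6 was between 172 and 469 CPM in iSCs (median 371), and its log2FC of -0.87 in bSCs and -0.95 in dSCs did not pass (adjusted p = 0.116 and 0.105).

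Receptors for fibronectin and other ligands with the RGD motif were compared next. In the pooled libraries Itga5, the α5 subunit that pairs with β1 as the classical fibronectin receptor, rose in dSCs and rose further in bSCs. Its partner Itgb1 rose in pooled bSCs against iSCs, and Itgb5, a partner of αv in vitronectin binding, fell in pooled bSCs against both other regions.

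Itga5 (chr15:103174720-103197194, minus strand) gave 27.2, 17.7, 34.3 and 20.5 CPM in iSCs. The dSC libraries gave 75.7, 108, 117 and 83.3 CPM and the bSC libraries 305, 218, 155 and 321 CPM. The 3 groups did not overlap. The log2FC was 1.94 (SE 0.30, adjusted p = 0.00273) in dSCs and 3.32 (SE 0.32, adjusted p = 6.25e-05) in bSCs against iSCs, both past the threshold in all 14 alternatives. Between bSCs and dSCs it was 1.38 (SE 0.30, adjusted p = 0.0201), and with the pool number as replicate block 1.33 (adjusted p = 0.0758). That call was also lost without bSC library 5 or dSC library 1 or 5 (adjusted p between 0.0543 and 0.063).

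Itgb1 (chr8:131209554-131257100, plus strand), the common β1 subunit, had the highest level of all members per kilobase, 133 ± 41 CPM per kb in iSCs, 173 ± 26 in dSCs and 328 ± 105 in bSCs (SD, n = 4). Its libraries gave 713, 573, 568 and 312 CPM in iSCs, 738, 647, 842 and 602 in dSCs, and 964, 1196, 1239 and 1955 in bSCs. Every bSC library exceeded every other library. The log2FC was 1.31 (SE 0.29, adjusted p = 0.00936) against iSCs, with an adjusted p of 0.0853 under the pool block, and 0.92 (SE 0.29, adjusted p = 0.0804) against dSCs. Of 6 endothelial markers, Eng rose in bSCs against iSCs (log2FC 1.74) and Kdr against dSCs (2.96), and the sum of all 6 was between 117 and 884 CPM in bSCs, between 154 and 356 in dSCs and between 130 and 374 in iSCs, with none at 0 throughout a group. Their part in the higher Itga5 and Itgb1 was not tested.

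Itgb5 (chr16:33829751-33949239, plus strand) gave 76.9, 66, 118 and 85.9 CPM in iSCs, 121, 72.3, 91 and 103 in dSCs, and 53.1, 39.2, 28.7 and 49.6 in bSCs. The bSC libraries lay below all others. The log2FC was -1.03 (SE 0.29, adjusted p = 0.0292) against iSCs and -1.18 (SE 0.29, adjusted p = 0.0317) against dSCs. Both were lost under the pool block (adjusted p = 0.141 and 0.0571), the first also on leaving out any of 5 single libraries (iSC 1, 4 or 5, bSC 2 or 3; adjusted p between 0.0507 and 0.0987) and the second on leaving out any of 6 (bSC 2, 3 or 5, dSC 1, 3 or 5; between 0.0511 and 0.0833).

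Of the other RGD receptors, Itgav, the αv subunit, gave 195, 207, 132 and 147 CPM in iSCs, 192, 51.5, 79.1 and 104 in dSCs and 196, 151, 112 and 201 in bSCs, and the groups overlapped. Itgb8, its β8 partner, gave 42.7, 65.1, 26.4 and 14.3 CPM in iSCs, 67.5, 13.8, 70.7 and 52.4 in dSCs and 43.9, 38.4, 55.3 and 48.5 in bSCs. Itga8, the α8 subunit, gave 21.9, 5.44, 9 and 0.483 CPM in iSCs, 0, 0, 7.08 and 1.79 in dSCs, and 0 in all 4 bSC libraries. With 513 counts in iSCs and 0 in bSCs, the level was at least 208-fold lower in bSCs, taking a floor of 3 counts over the group. Without iSC library 1, which held 281 of these counts, the bound was 119-fold. The fit called it (adjusted p = 0.0345), but not under the pool block (adjusted p = 0.118), nor without any 1 of 7 libraries (all but iSC 5).

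**Figure D3:**
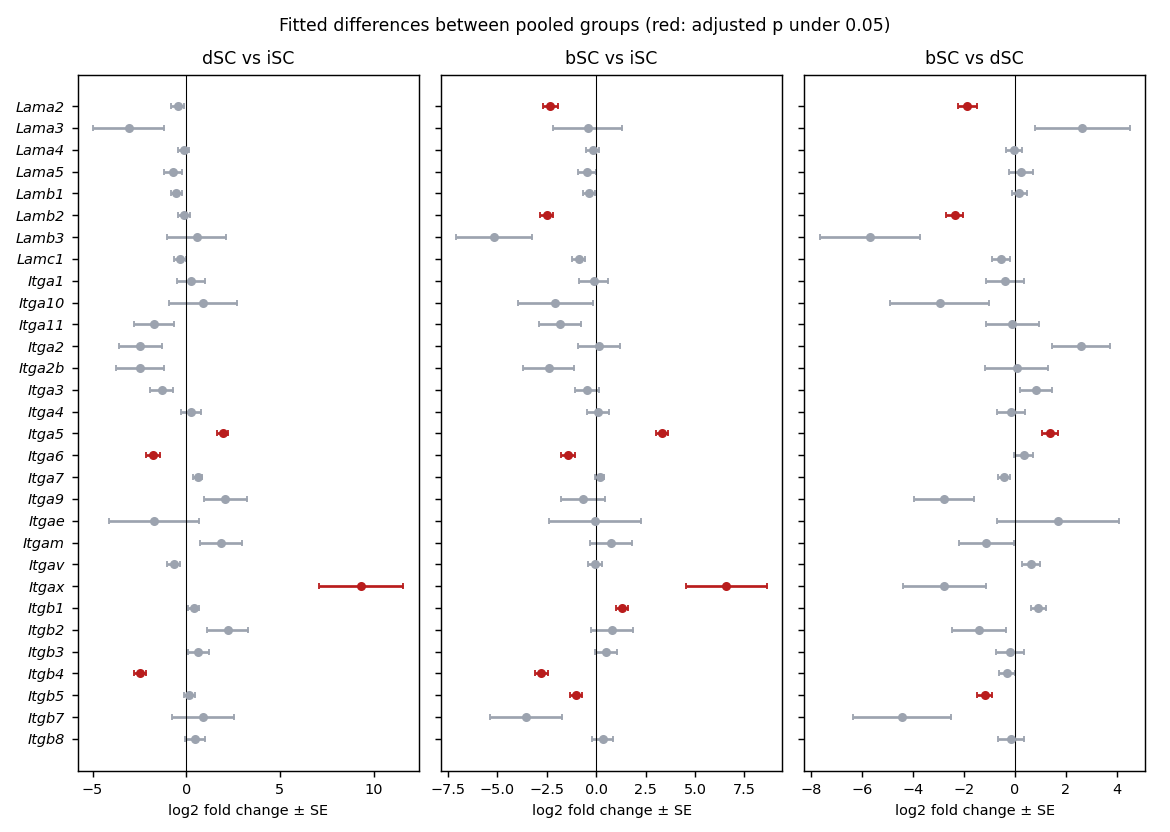
Fitted log2 fold change with its SE (x axis) of 30 of the 32 members tested in the pooled libraries, for dSCs against iSCs, bSCs against iSCs and bSCs against dSCs. Red marks an adjusted p under 0.05. Itga8, whose error was larger, is among those not drawn. Itgb4 and Itga6 lie left of 0 in both comparisons with iSCs, Lama2 and Lamb2 in both comparisons with bSCs, and Itga5 right of 0 in all 3.

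Counted over all 32 members tested, 4 passed in dSCs against iSCs, 2 higher (Itga5 and Itgax) and 2 lower (Itga6 and Itgb4), where 2.63% of all 13751 genes tested were higher and 2.69% lower. In bSCs against iSCs 9 passed, 3 higher and 6 lower, where 7.24% of all genes were higher and 7.46% lower. In bSCs against dSCs 4 passed, 1 higher (Itga5) and 3 lower (Itgb5, Lama2 and Lamb2), against 2.31% and 3.11%. The median log2FC of the members was -0.15, -0.44 and -0.16, and that of all genes -0.02, -0.16 and -0.07. With the pool number as replicate block, 5 members passed in bSCs against iSCs and 2 (Lama2 and Lamb2) in bSCs against dSCs, where 7.04% and 1.72% of all genes did. These comparisons share their libraries.

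To follow these genes in time, single-nerve libraries were set against iSCs. Over all 6 days of the distal course 1 of 34 members passed, where 0.767% of 15519 genes did, and it was Itgam. Over days 4 to 10 together, 1 member passed in dSCs (5.32% of all genes) and 7 in bSCs (9.34%). The 7 were Itgb4, Itgam, Itgb2, Itgav, Itga8, Lamb3 and Lamc3. Itgam, Itgb2, Itgb3, Lamb3, Lamc3, Itga2, Itga3 and Itga9 were chosen for naming after their values were seen.

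Itgav was between 74.8 and 265 CPM in the bSC libraries (median 142) and between 41.8 and 107 CPM in iSCs (median 52.8). Its log2FC was 1.14 (SE 0.36, adjusted p = 0.042), and it passed in 11 of 23 alternatives. The call was lost on leaving out any of 9 libraries: iSC 0, 3, 4 or 5, bSC day 4 library 0, bSC day 6 library 0 or 1, bSC day 8 library 0 or bSC day 10 library 0, with adjusted p between 0.0538 and 0.0953. Itga8 was between 0 and 10.5 CPM in bSCs and between 5.92 and 69.3 CPM in iSCs, with a log2FC of -5.54 (SE 1.41, adjusted p = 0.013) that passed in all 22 alternatives. Lamb3 and Lamc3, chains of epithelial and other basal laminae, were at 0 in 7 and 6 of the 12 bSC libraries, with maxima of 0.322 and 2.02 CPM there. In iSCs Lamb3 was at 0 in 2 of 5 libraries, with a median of 0.102 CPM and 1 library at 43.3 CPM, and Lamc3 was at 0 in 1 of 5, with a median of 18.9 and a maximum of 30.4 CPM.

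Between bSCs and dSCs over days 4 to 10, no member passed in edgeR, where 0.103% of all genes did. At an unadjusted p under 0.05 there were 5 members, where 9.01% of all genes had one, and DESeq2 called 1 member, Lamb3 (log2FC -7.66), and 3.67% of all genes. A change of this difference with the day passed for no member in edgeR (0% of all genes, 2 members at an unadjusted p under 0.05 with 3.14% of all genes, 0 members by DESeq2). Between dSCs of days 8 and 10 and those of days 1 and 2 no member passed, where 0.206% of all genes did, 4 members had an unadjusted p under 0.05, at about the share of all genes, 11.3%, and DESeq2 called 0. Those 4 were Lama2, Lama4, Lamb1 and Lamc1, all with a positive log2FC, of 1.22, 0.89, 1.52 and 1.24 (adjusted p between 0.214 and 0.321). A positive log2FC was found in 24 of the 34 members, and the share of all genes with one was not counted. The median log2FC was 0.549 over the members and 0.078 over all genes, a difference that was not tested. Lamb1 and Lamc1 were lowest in dSC day 1 library 1 (25 and 44.2 CPM) and in day 2 library 0 of low scaling factor (5.79 and 47.1 CPM). Lama2 was between 45.5 and 109 CPM in the 6 dSC libraries of days 1 and 2. It was at 144, 217 and 232 CPM at day 8 and at 65.4, 122 and 235 CPM at day 10.

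Itga5 was between 69.6 and 302 CPM in the 12 bSC libraries (median 181) and between 54.6 and 181 CPM in the 12 dSC libraries (median 95). The iSC libraries gave 0, 1.26, 173, 73.2 and 124 CPM, the lowest 2 being those of low scaling factor, and no single-nerve contrast with iSCs passed for it. Over days 4 to 10 the log2FC of Itga5 against iSCs was 1.22 in bSCs (adjusted p = 0.436). In dSCs Itga5 had a log2FC of 0.43 (adjusted p = 0.855). Over the 23 alternatives Itga5 had a log2FC between -0.305 and 1.046 there, positive in 22, and passed in 0. Over the 10 animal pairs it was higher in bSCs in 8, by a mean log2 difference of 0.91 ± 0.78 (SD, exact sign-flip permutation p = 0.0117, adjusted over the 6 measures 0.0273), against an adjusted p of 0.878 over all genes in edgeR. Itgb5 was lower in bSCs in 8 of 10 pairs, by -0.62 ± 1.04 (exact p = 0.0488, adjusted p = 0.0586). Against single-nerve iSCs over days 4 to 10, the log2FC of Itgb5 in bSCs was 0.91 (adjusted p = 0.592). It was positive in all 23 alternatives (0.177 to 1.515), opposite in sign to the pooled fall, and passed in 0 of them. The iSC libraries gave 0, 0.359, 9.88, 51.4 and 56.6 CPM of Itgb5, the lowest 2 being those of low scaling factor. The bSC median was 47.3 CPM. For Itgb1 the log2FC in bSCs was 0.81 (adjusted p = 0.142). The 2 animals in which Itga5 was not higher in bSCs were of days 4 and 8.

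**Figure D4:**
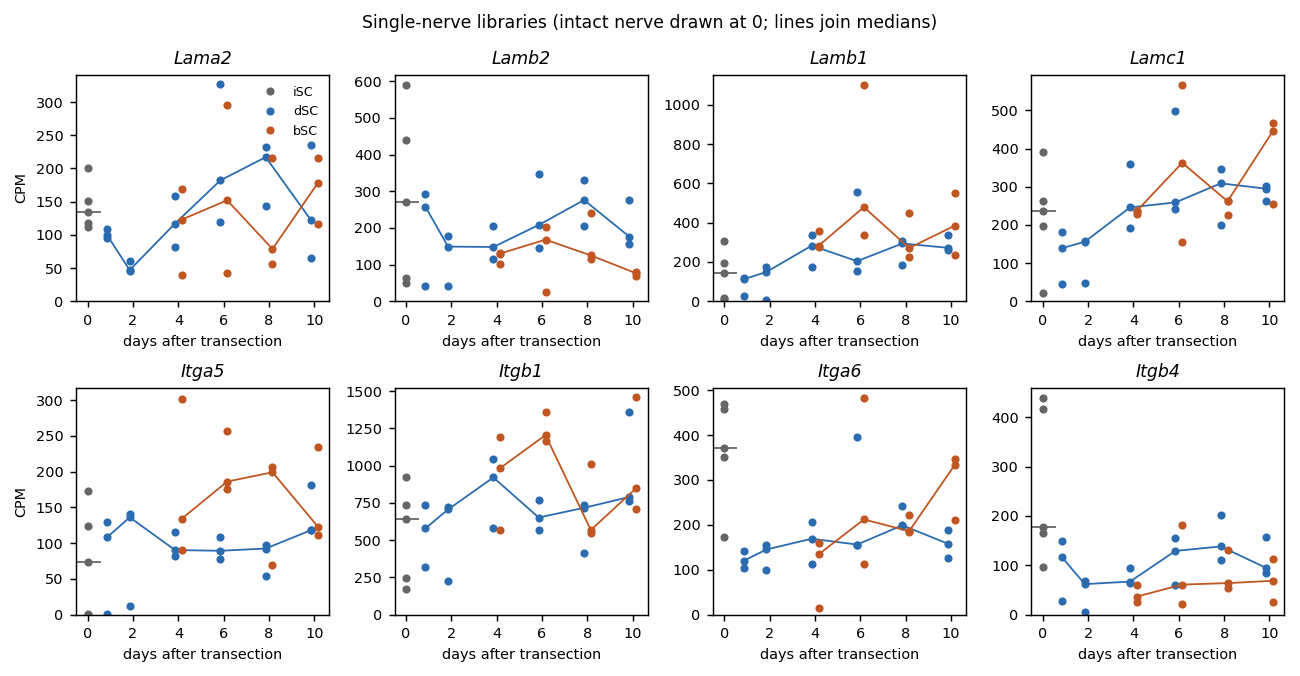
CPM (y axis, linear) of 8 members in the 35 single-nerve libraries against days after transection (x axis), with iSCs drawn at 0, 1 point per library and lines through the group medians. Itga5 in bSCs lies between 69.6 and 302 CPM and in dSCs of days 4 to 10 between 54.6 and 181 CPM. Lamb2 in bSCs at day 10 is between 69.6 and 80.6 CPM.

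On single days, 11 calls were made in all. Itgam made 9 of them, at 5 of 6 days in dSCs and at all 4 days in bSCs, and the others were Itgb3 in dSCs at day 4 (log2FC 2.31, SE 0.60, adjusted p = 0.0396) and Itgav in bSCs at day 6 (1.73, SE 0.45, adjusted p = 0.046). The share of all genes called was 0.180%, 0.445%, 1.73%, 0.554%, 0.303% and 0.354% over the sampled days of dSCs in order, from day 1 to day 10, and 1.57%, 1.33%, 0.303% and 1.30% in bSCs from day 4 to day 10. In dSCs at day 8 no member passed in edgeR, 4 had an unadjusted p under 0.05 (8.66% of all genes), and DESeq2 called 1, Itgam (2.63% of all genes).

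The leukocyte subunits were set beside the macrophage markers. Itgam, the αM subunit of the complement receptor of myeloid cells, was at 0 in 2 of the 5 single-nerve iSC libraries and at 4.08 CPM at most. It was between 4.44 and 176 CPM in dSCs of days 1 and 2, between 6.17 and 222 CPM in dSCs of days 4 to 10 and between 5.63 and 189 CPM in bSCs. Its log2FC over days 4 to 10 was 5.57 (SE 1.01, adjusted p = 0.00134) in dSCs and 5.63 (SE 1.02, adjusted p = 0.000862) in bSCs. Itgb2, the β2 subunit that pairs with it, was between 0.139 and 21.7 CPM in iSCs and between 14.9 and 433 CPM in bSCs, with a log2FC of 3.84 (SE 1.08, adjusted p = 0.0234). The macrophage sum in the single-nerve libraries was between 252 and 992 CPM in iSCs, between 1838 and 11395 CPM in dSCs and between 721 and 10270 CPM in bSCs. The dSC day 2 library of low scaling factor had a sum of 3836 CPM and no Itgb2. Of 4 neutrophil markers, 3 were listed in the count tables. Their sum was between 0.832 and 2.8 CPM in pooled iSCs, between 32.6 and 43.7 in dSCs and between 8.71 and 25.7 in bSCs. The 1 marker tested rose against iSCs in pooled dSCs and bSCs (log2FC 4.35 and 3.42). S100a9 was at 0 throughout pooled iSCs and bSCs. S100a8 was at most 0.151 CPM in pooled iSCs, 0.95 in bSCs and 3.02 in dSCs. The part of macrophage or neutrophil RNA in these values was not tested.

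In the pooled libraries Itgam was between 46.8 and 68 CPM in dSCs, between 0.0859 and 56.3 CPM in bSCs and between 2.9 and 40.1 CPM in iSCs. The lowest bSC library, library 3, had a macrophage sum of 2887 CPM. Between dSCs and iSCs Itgam did not pass (log2FC 1.86, SE 1.11, adjusted p = 0.48). Itgax, the αX subunit of macrophages and dendritic cells, gave 7.72, 17.5, 28 and 14.8 CPM in dSCs, 5.11, 4.9, 0 and 0 in bSCs and 0, 0, 0.0756 and 0 in iSCs, where 1 count was made in all. Its level in dSCs was 923 times that in iSCs, with a 95% exact counting interval of 165 to 36483, and that in bSCs 149 times (26.4 to 5911), both intervals covering counting error only. Both were called (adjusted p = 0.0298 and 0.0459), and neither under the pool block (0.189 and 0.226). The call in dSCs was lost without any library of the 2 groups but dSC 1 (adjusted p between 0.0549 and 0.103), and that in bSCs without any iSC library or bSC library 1 or 2 (between 0.0688 and 0.115).

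**Figure D5:**
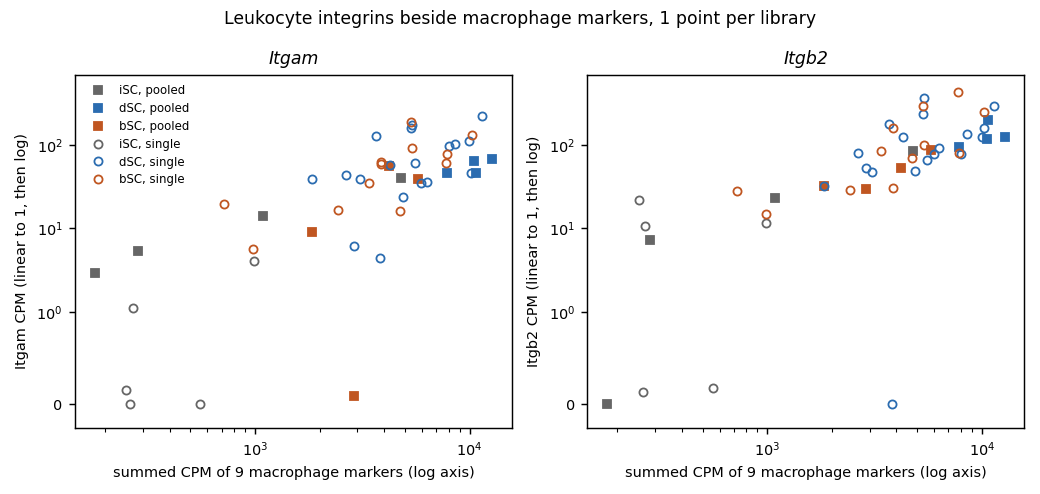
CPM of Itgam (left) and Itgb2 (right) against the summed CPM of 9 macrophage markers, with 1 point per library, filled for pooled and open for single-nerve libraries. The x axis is logarithmic and the y axis linear up to 1 CPM and logarithmic above. Single-nerve iSC libraries, with marker sums of 252 to 992 CPM, lie at 4.08 CPM of Itgam or below.

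Of the remaining integrins, the collagen receptors Itga1, Itga2, Itga10 and Itga11, and Itga3, Itga4 and Itga9, passed in none of the pooled comparisons in edgeR fitted over all 3 groups, while edgeR fitted to the groups compared alone called Itga9 in dSCs against iSCs (log2FC 2.14), and DESeq2 called Itga3 in dSCs against iSCs (log2FC -1.32) and Itga2 in bSCs against dSCs (2.56). Among these 7 genes the mean CPM in any region was at most 47.6, that of Itga9 in dSCs, with a range of 15.6 to 84.9 CPM. Exons of a neighbour overlapped 33.5% of those of Itga10, whose values are thus uncertain. Itga2b, Itgae, Itgb3, Itgb7, Lama3 and Lamb3 likewise passed in no pooled comparison in edgeR, while DESeq2 called Lamb3 in bSCs against iSCs (-5.39) and against dSCs (-5.93). Their mean CPM was at most 44.8 in any region, that of Itgb3 in dSCs. Of the 5 members not tested, Itgad was at 0 in all 12 pooled libraries and Itgb6 in all but 1. Lama1 was detected in 1 iSC library alone, Itgal had a mean of at most 2.1 CPM, and Lamc3 a mean of 8.66 CPM in iSCs and 0.149 CPM in dSCs, with 0 in all bSC libraries.

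Other genes of the pathway were taken from lists chosen with earlier results of these data known. Of all 13751 genes tested, 2.63% rose and 2.69% fell in dSCs against iSCs, and 7.24% rose and 7.46% fell in bSCs. Of 20 genes of the dystroglycan complex and its glycosylation, the other main laminin receptor of SCs, 6 fell and 0 rose in dSCs against iSCs, with a median log2FC of -1.16, and 6 fell and 0 rose in bSCs, with a median of -0.84. Among those that fell were Drp2 (log2FC -3.75 and -6.00) and Prx (-4.43 and -4.23), which tie dystroglycan to the myelin surface. Utrn, which links the complex to actin, fell in bSCs (-2.26). Of 24 genes of integrin activation and adaptors, 2 rose and 1 fell in dSCs, and 5 rose and 1 fell in bSCs. Fblim1, a filamin-binding protein of adhesion sites, rose by log2FC 2.78 and 3.18, Ilk, the integrin-linked kinase, by 0.99 in bSCs, while Dst, a linker of hemidesmosomes and filaments, was lower in bSCs (-1.71).

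Of the 10 other integrin ligands, 3 rose and 0 fell in dSCs, where 2.63% of all genes rose and 2.69% fell. In bSCs 1 rose and 1 fell, against 7.24% and 7.46% of all genes. Tnc, tenascin-C, rose by log2FC 7.10 in dSCs and 9.37 in bSCs, and Fn1, fibronectin, by 2.55 in dSCs. Thbs1, thrombospondin 1, rose by 2.11 in dSCs, and Vtn, vitronectin, a ligand of the αv integrins, was lower in bSCs (-3.50). Of 13 basement membrane partners, 1 rose in dSCs, and 1 rose and 2 fell in bSCs. Col18a1, a basement membrane collagen, rose by 2.30 and 2.89, and Col4a3, a chain of collagen IV, and Ntn4, a netrin that binds laminin, fell in bSCs. Between bSCs and dSCs the dystroglycan list gave 1 rise (Sgcb, 1.35) and the adaptors 1 rise (Ilk, 1.11). The ligands gave 1 rise (Tnc, 2.27) and 1 fall (Vtn, -3.31). Of all genes, 2.31% rose and 3.11% fell in this comparison.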

How the data were processed

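RNA of sorted SCs was amplified by Smart-seq2 and sequenced. The authors aligned reads to mouse build mm9 with TopHat2 2.0.11 and deposited raw counts per gene from HTSeq. Rat culture libraries were not analysed here. Some genes are not reported here. Lane files of 1 library were summed. Counts were fitted with edgeR 4.0.16 in R 4.3.3 (TMM scaling, filterByExpr, quasi-likelihood test, 1 fit over the groups of each experiment, Benjamini-Hochberg adjustment over all genes tested, threshold 0.05), and the steps were tested on simulated data. DESeq2 1.42.0 and the other settings named in the closing section were alternatives. Log2 values of the paired test used a prior count of 2. Depth is given in the report. The members and gene lists were chosen with earlier results of these data known. Members called in a pooled comparison, or in single-nerve bSCs against dSCs, and the main SC laminins and integrins are given in every pooled library, and of each list at most 4 called genes per comparison are named. Counting intervals are exact 95% intervals, the floor is 3 counts over a group, and both cover counting error only.

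Pooled libraries with the same number share animal labels, and 10 single-nerve pairs of bSC and dSC libraries share an animal. Deviations from group means correlated by -0.0143 on average over 10 pooled pairs with the same label (0.00448 over 38 others), and by 0.157 over 10 single-nerve pairs (-0.0677 over 23 others). The correlation was thus no higher in same-label pooled pairs than in others, and the same-animal single-nerve pairs ranged from -0.0624 to 0.677. The main fits used no pairing. Where a replicate block or a paired test was used, the pairing was taken from the labels alone.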

Additional observations from a re-analysis of the deposited data

Results flagged for a closer look

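The Lama2 level of pooled iSC library 5, 554 CPM, stood apart from the others, the nearest of which was 254 CPM. Itgax was at 0.0756 CPM in 1 pooled iSC library and at 0 in the other three, and its highest single-nerve iSC library, at 0.204 CPM, stood apart from the next at 0.0528 CPM. These came from a search of 64 groups of libraries, in which chance flags about 1 group in 20. The response to transection differed between bridge and distal stump in the pooled edgeR fit for Itga5 (log2FC 1.38, adjusted p = 0.0201), Itgb5 (-1.18, 0.0317), Lama2 (-1.86, 0.0124) and Lamb2 (-2.36, 0.00405).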

How the results depend on the processing

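Several counts of members called changed under the alternatives. With the pool number as replicate block, 5 members in place of 9 passed in bSCs against iSCs and 2 in place of 4 in bSCs against dSCs, while the calls over all genes went from 2022 to 968 and from 746 to 236, and with the animal as replicate block 0 members passed between single-nerve bSCs and dSCs, as without it. DESeq2 called 8 members in pooled bSCs against dSCs, 2 over the distal course, 5 in single-nerve dSCs and 1 in bSCs against dSCs over days 4 to 10, and 38 over the single days in place of 11. Over all genes it called 744, 1690 and 596 in these single-nerve fits, against 119, 826 and 16 by edgeR, and 8875 over the single days against 1252. The study's filter gave 0 over the distal course, 2 in single-nerve bSCs in place of 7 and 5 over the single days. That filter left 7171 of 15519 genes, and over all of them 140, 723 and 1414 calls were made. Over days 4 to 10 in dSCs, 2 members in place of 1 passed with no filter, with only the groups compared, and without the 3 libraries of low scaling factor, a setting chosen after seeing the data. With only the groups compared 3 passed in bSCs. Leaving out 1 library at a time gave 2 to 4, 5 to 9 and 2 to 4 members in the pooled comparisons of dSCs with iSCs, bSCs with iSCs and bSCs with dSCs, 0 to 1 over the distal course, 1 to 2 in dSCs and 6 to 8 in bSCs over days 4 to 10, 7 to 11 over single days, and 0 in the other single-nerve comparisons. The cause was not tested. Over all genes, DESeq2 called 1532, 3374 and 2106 in the pooled comparisons against 732, 2022 and 746 by edgeR. Leaving out the libraries of low scaling factor moved the median log2FC of all genes by -0.248 in dSCs and -0.276 in bSCs. Levels near 1 count limit Itgax, Itga8, Lamb3 and Lamc3.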
